A study of Homo sapiens with 12 samples.

Results

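The 10 genes described here, CCND1, CCND2, CCND3, CCNE1, CCNE2, CDK2, CDK4, CDK6, RB1 and E2F1, encode the core of the switch by which a cell leaves G1 and begins to copy its DNA. They were chosen by symbol, with earlier results of these data known. The count tables of 2 liver cancer lines list 20293 genes between them. All 10 were listed in HepG2 and 9 in Huh7, where CCND2 was not listed. Each gene listed in a line also passed the filter on low counts there, which kept 15755 genes in HepG2 and 16965 in Huh7.

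Mitogenic signals raise the D-type cyclins, which bind CDK4 or CDK6, and the resulting kinases begin to phosphorylate the retinoblastoma protein, RB1. Phosphorylated RB1 releases E2F1 and its relatives, transcription factors that switch on the genes of DNA synthesis and also CCNE1, CCNE2 and E2F1 itself. The E-type cyclins then bind CDK2, which completes the phosphorylation of RB1 and closes the loop. In the healthy adult liver most hepatocytes rest outside the cycle and re-enter it after injury, and this switch is often altered in liver cancer.

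HepG2 and Huh7 are established human lines labelled as hepatocellular carcinoma, and both were wild type. Cells of each line were transfected with an siRNA against UBL5, a small ubiquitin-like protein that works with the spliceosome, or with a non-target control (Ctrl-siRNA), with lipofectamine RNAiMAX. The label gives a time of 52 h, and the protocol gives an overnight transfection and then another 36 h in fresh medium. The paper's figure legend gives a slightly shorter time. Poly-A RNA was sequenced from 3 libraries per siRNA in each line, 12 in all, and no source used here says whether the 3 were separate transfections, so a p-value here covers the variation among these libraries and may not cover that among cultures. The knockdown is transient and partial, and cells were not sorted or synchronised by phase. The paper lists no other siRNA against UBL5, and the cells it made with a UBL5 shRNA are not among these libraries. Loss of UBL5 and other effects of this siRNA therefore cannot be told apart in these data.

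The libraries held 19469574 to 29744471 reads counted to genes. UBL5 itself fell by 3.63 on the log2 scale in HepG2 and fell by 3.44 in Huh7 (adjusted p = 8.36e-05 and 2.86e-10, edgeR's quasi-likelihood test), and every library matched its label. All 9 hepatocyte markers examined were present, at a summed 50004 to 59658 counts per 1000000 reads (CPM) in HepG2 libraries and 28360 to 30550 in Huh7 libraries, and the leukocyte markers PTPRC, CD3E and ITGAM were listed in neither line. Of these 9 markers, 4 rose and 0 fell in HepG2 and 3 rose and 2 fell in Huh7. The other leukocyte markers, led by LYZ, summed to 1637 to 2193 CPM with Ctrl-siRNA and 985 to 1263 CPM with UBL5 siRNA in HepG2, and to 563 to 578 and 338 to 355 CPM in Huh7. Within that list CD14 rose in both lines (log2 fold change 4.72 and 1.51; adjusted p = 0.000117 and 6.11e-06, edgeR) and LYZ fell in both (-0.75 and -0.74; 0.00194 and 3.55e-08). Endothelial markers summed to at most 6.45 CPM and fibroblast markers to at most 35.1 CPM in any library. Mitochondrial genes took 1.91 to 2.36% of counts in HepG2 Ctrl-siRNA libraries and 2.75 to 3.61% in UBL5 siRNA libraries, against 2.46 to 3.30% and 2.66 to 3.72% in Huh7; the part of these levels in the results below was not tested. HepG2 Ctrl-siRNA replicate 3 stood apart, with 1773 genes at 0 against 159 to 233 in the other HepG2 libraries, and 444 of them had 10 or more counts in each of the other 5. The spread between replicates was also wider in HepG2, with a common biological coefficient of variation of 0.189 against 0.0663 in Huh7.

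With UBL5 siRNA most of these genes fell in both lines, while CCND1 rose in both. In HepG2, CCND3, CCNE1, CCNE2, CDK2, CDK6, RB1 and E2F1 fell and CCND1 rose, 8 of 10 genes, where 36.7% of all genes tested passed the same threshold (adjusted p under 0.05; 20.1% fell and 16.5% rose). In Huh7 the corresponding counts were 7 lower and 1 higher of 9, against 71.3% of all genes (36.4% lower and 34.9% higher). All 10 genes are protein-coding, and calls were more common among protein-coding genes. Of these, 2853 of 12009 fell and 2314 rose in HepG2, and 4905 of 12941 fell and 4942 rose in Huh7. The 7 genes that fell and the 1 that rose carried the same names in both lines, and 16.4% of the 14518 genes tested in both lines fell in both while 14.5% rose in both. The median log2 fold change was -0.64 over the 10 genes in HepG2 and -0.50 over the 9 in Huh7, beside medians of 0.01 and -0.01 over all genes tested. CDK4 did not pass the test in either line. Without HepG2 Ctrl-siRNA replicate 3, CDK4 passed as well, so that 8 of 10 fell and 1 rose there, and without both HepG2 libraries numbered 3 the counts were 7 and 1. The number that fell in HepG2 was 4 without UBL5 siRNA replicate 2, 5 without Ctrl-siRNA replicate 1, Ctrl-siRNA replicate 2 or UBL5 siRNA replicate 3, and 7 without UBL5 siRNA replicate 1. In bulk RNA, fewer cells that carry an mRNA and less of it per cell cannot be told apart.

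**Figure D1:**
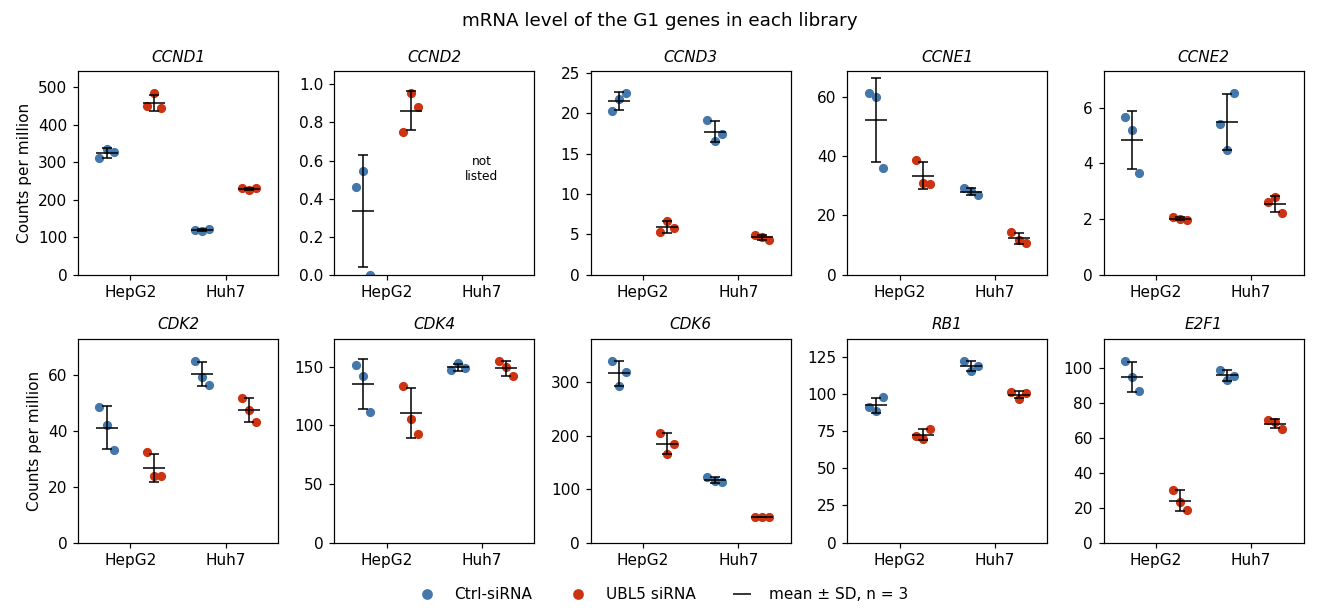
Level of each of the 10 genes in each library, in CPM on a linear axis that starts at 0 and has its own scale in each panel; points are libraries, and the black bar and whiskers are the mean ± SD of 3 libraries. CCND1 sat higher with UBL5 siRNA in both lines, CDK4 overlapped between the siRNAs, and E2F1 dropped much further in HepG2 than in Huh7.

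Cyclin D1, encoded by CCND1 (chromosome 11 on GRCh38, GENCODE 44, 69641156 to 69654474, plus strand, 5 exons), is the main D-type cyclin of hepatocytes and couples growth factor signals to CDK4 and CDK6. In HepG2 it read 312, 337 and 327 CPM with Ctrl-siRNA and 449, 484 and 445 CPM with UBL5 siRNA. In Huh7 it read 119, 116 and 121 CPM with Ctrl-siRNA and 231, 226 and 232 CPM with UBL5 siRNA. In each line every UBL5 siRNA library lay above every Ctrl-siRNA library. The log2 fold change was 0.50 ± 0.0745 (SE, n = 3 per group; adjusted p = 0.00124, edgeR) in HepG2, a 1.41-fold rise, and 0.95 ± 0.0425 (adjusted p = 6.09e-09) in Huh7, a 1.93-fold rise. The rise was larger in Huh7 by 0.42 on the log2 scale (95% interval 0.26 to 0.59; adjusted p = 0.00212 for the interaction, edgeR). LTO1, on the opposite strand, shares 10.44% of the exon bases of CCND1, and the strand setting used in counting is not given in the sources used here.

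CCND3 (chromosome 6, 41934934 to 42050357, minus strand, 5 exons) encodes cyclin D3, which pairs with the same kinases. HepG2 libraries held 20.3, 21.8 and 22.5 CPM with Ctrl-siRNA and 5.25, 6.67 and 5.76 CPM with UBL5 siRNA. Huh7 libraries held 19.2, 16.5 and 17.5 CPM with Ctrl-siRNA and 4.93, 4.73 and 4.27 CPM with UBL5 siRNA. The groups were far apart in both lines, and CCND3 had the largest fall of the 9 genes in Huh7 and the second largest of the 10 in HepG2. CCND3 fell 3.65-fold in HepG2 (log2 fold change -1.87 ± 0.146 SE; adjusted p = 0.000102, edgeR) and 3.83-fold in Huh7 (-1.94 ± 0.105; adjusted p = 2.35e-08). The 2 falls differed by -0.09 on the log2 scale, with a 95% interval of -0.47 to 0.29.

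CCND2, the gene of cyclin D2 (chromosome 12, 4269771 to 4305353, plus strand, 5 exons), was barely read in HepG2. It had 12, 13 and 0 counts with Ctrl-siRNA and 17, 23 and 17 counts with UBL5 siRNA. The 0 stood in the library that lacks 444 otherwise detected genes. The fitted log2 fold change of 1.37 ± 0.972 (SE) did not pass the test (adjusted p = 0.308, edgeR), and without that library it was 0.78 (adjusted p = 0.0901). Exons of CCND2 share 12.51% of their bases with a same-strand locus that has no symbol in GENCODE.

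CCND1 and CCND3 moved in opposite directions, and the make-up of the D-type family shifted. Dividing counts by exon length, CCND3 made up 5.11, 5.08 and 5.37% of D-type cyclin mRNA in HepG2 Ctrl-siRNA libraries and 0.955, 1.12 and 1.06% in UBL5 siRNA libraries. In Huh7 its share was 11.7, 10.5 and 10.7% with Ctrl-siRNA and 1.73, 1.70 and 1.50% with UBL5 siRNA. The shares did not overlap in either line, and CCND3 dropped by 4.14 percentage points in HepG2 and dropped by 9.32 in Huh7 (exact permutation test, two-sided, p = 0.1 in each line, the smallest p that 3 against 3 allows). CCND1 supplied nearly all of the rest, 94.8 ± 0.107% and then 98.8 ± 0.0949% (SD, n = 3) in HepG2 and 89.0 ± 0.647% and then 98.4 ± 0.127% in Huh7. The summed level of the family went from 72.1 ± 2.81 to 97.6 ± 4.60 CPM per kb of exon in HepG2 and from 28.1 ± 0.671 to 49.1 ± 0.615 in Huh7.

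**Figure D2:**
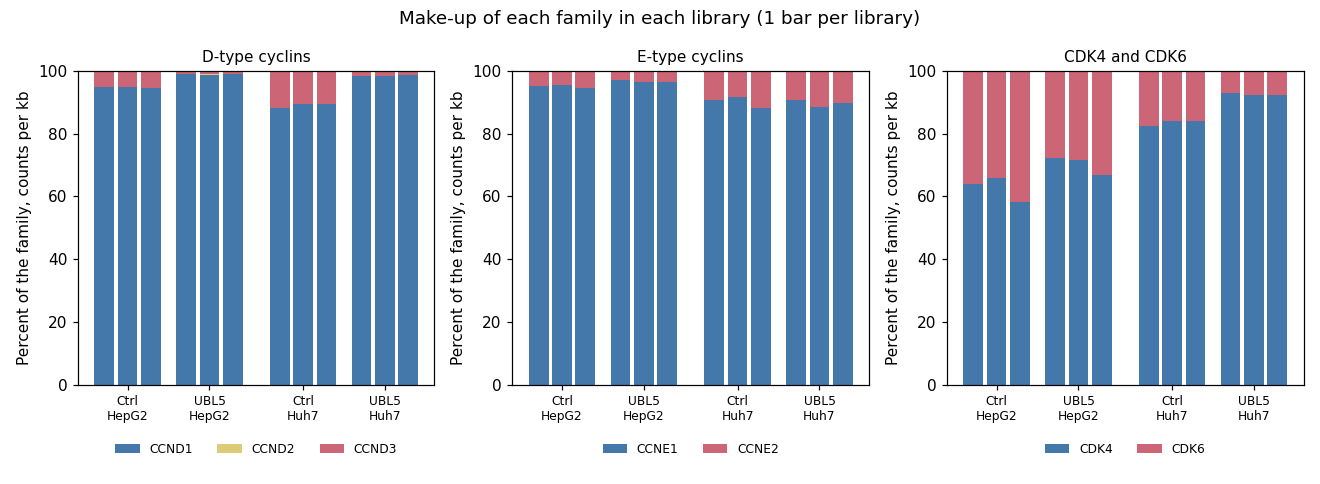
Share of each gene in its family's mRNA, in percent of counts per kb of exon, 1 stacked bar per library; Ctrl stands for Ctrl-siRNA and UBL5 for UBL5 siRNA. The CCND3 part of the D-type bars shrank from about 5.19 to 1.05% in HepG2 and from 11.0 to 1.64% in Huh7, and the CDK6 part of the right-hand bars shrank in both lines, while the E-type bars of Huh7 overlapped.

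CDK6 (chromosome 7, 92604921 to 92836573, minus strand, 8 exons) encodes one of the 2 kinases that the D-type cyclins switch on. Its HepG2 level was 339, 292 and 319 CPM with Ctrl-siRNA and 205, 166 and 184 CPM with UBL5 siRNA. Its Huh7 level was 123, 115 and 113 CPM with Ctrl-siRNA and 47.6, 48.8 and 47.9 CPM with UBL5 siRNA. Both lines showed a clear gap between the siRNAs, and the Huh7 gap was the wider. The fall was 1.71-fold in HepG2 (log2 fold change -0.78 ± 0.1002 SE; adjusted p = 0.000631, edgeR) and 2.43-fold in Huh7 (-1.28 ± 0.0513; adjusted p = 2.93e-09), a difference of -0.53 (95% interval -0.78 to -0.29; adjusted p = 0.00537).

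CDK4 (chromosome 12, 57747727 to 57756013, minus strand, 8 exons), the other kinase of the pair, read 152, 143 and 112 CPM in HepG2 Ctrl-siRNA libraries and 134, 105 and 93.0 CPM in UBL5 siRNA libraries. In Huh7 it read 147, 153 and 149 CPM with Ctrl-siRNA and 155, 150 and 142 CPM with UBL5 siRNA. The siRNA groups overlapped in both lines. The log2 fold change was -0.29 (95% interval -0.65 to 0.07; adjusted p = 0.185, edgeR) in HepG2 and -0.01 (95% interval -0.11 to 0.09; adjusted p = 0.877) in Huh7. The main fits did not pair libraries. In HepG2, CDK4 passed the test once the replicate number was a block (log2 fold change -0.29, adjusted p = 0.0206, edgeR). It also passed there without Ctrl-siRNA replicate 3 (-0.41, adjusted p = 0.0388, edgeR). TSPAN31 on the opposite strand covers 44.25% of the exon bases of CDK4, which makes the CDK4 count less certain than that of CDK6; TSPAN31 had 152 to 249 counts in HepG2 libraries, against 1792 to 3964 for CDK4, and 244 to 532 counts in Huh7 libraries, against 2972 to 4138. TSPAN31 itself fell 1.49-fold in Huh7 (adjusted p = 0.000123, edgeR) and did not pass in HepG2 (log2 fold change 0.16; adjusted p = 0.673), and its part in the CDK4 counts was not tested.

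With CDK6 lower, CDK4 took a larger part of the kinase mRNA that the D-type cyclins can use. The CDK6 share of the CDK4 and CDK6 sum, per kb of exon, was 36.1, 34.1 and 41.9% in HepG2 Ctrl-siRNA libraries and 27.9, 28.5 and 33.3% in UBL5 siRNA libraries. In Huh7 it was 17.4, 16.0 and 16.1% with Ctrl-siRNA and 7.22, 7.62 and 7.86% with UBL5 siRNA. The shares did not overlap in either line, although HepG2 UBL5 siRNA replicate 3 at 33.3% came close to Ctrl-siRNA replicate 2 at 34.1%. The share fell by 7.47 percentage points in HepG2 and fell by 8.94 in Huh7 (exact permutation test, two-sided, p = 0.1 in each line, again the smallest possible). The size in Huh7 depends on the length used, since the change there was -18.9 percentage points with coding length and -19.4 with no division by length. In HepG2, which kinase had the larger share also depends on length. Undivided, Ctrl-siRNA libraries there held 8857, 6986 and 9587 counts of CDK6 and 3964, 3408 and 3357 of CDK4. The summed level of both kinases was 69.6 ± 7.34 and 50.9 ± 7.99 CPM per kb (SD) in HepG2 with Ctrl-siRNA and UBL5 siRNA, and 58.0 ± 0.843 and 52.0 ± 2.04 in Huh7.

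CCNE1 (chromosome 19, 29811991 to 29824312, plus strand, 12 exons) encodes cyclin E1, the partner of CDK2 at the start of S phase. In HepG2 it read 61.1, 59.8 and 35.9 CPM with Ctrl-siRNA and 38.7, 31.0 and 30.5 CPM with UBL5 siRNA. Huh7 libraries held 29.4, 28.1 and 26.7 CPM with Ctrl-siRNA and 14.3, 11.8 and 10.8 CPM with UBL5 siRNA. The Huh7 groups were well apart, whereas in HepG2 the low Ctrl-siRNA replicate 3 fell below UBL5 siRNA replicate 1. CCNE1 fell 1.56-fold in HepG2 (log2 fold change -0.65 ± 0.203 SE; adjusted p = 0.0350, edgeR) and 2.28-fold in Huh7 (-1.19 ± 0.0997; adjusted p = 7.53e-07). The HepG2 call rested on the full set of libraries: it was lost without the Ctrl-siRNA library numbered 1 (adjusted p = 0.114) or 2 (0.121) and without the UBL5 siRNA library numbered 2 (0.129) or 3 (0.117). The difference between the lines was -0.57 (95% interval -1.11 to -0.03) and did not pass after adjustment (adjusted p = 0.125), but it passed with the replicate block (-0.60; adjusted p = 0.0328, edgeR).

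CCNE2, on chromosome 8 (minus strand, 12 exons), encodes cyclin E2, a second partner of CDK2, and was read far less often than CCNE1. It had 148, 124 and 110 counts in HepG2 Ctrl-siRNA libraries and 47, 48 and 38 in UBL5 siRNA libraries. In Huh7 it had 153, 101 and 130 counts with Ctrl-siRNA and 53, 56 and 48 with UBL5 siRNA. No UBL5 siRNA library reached the lowest Ctrl-siRNA library in either line. The fall was 2.40-fold in HepG2 (log2 fold change -1.26 ± 0.266 SE; adjusted p = 0.00627, edgeR) and 2.15-fold in Huh7 (-1.11 ± 0.171; adjusted p = 0.000119). INTS8, on the opposite strand, shares 37.05% of the exon bases of CCNE2 and had several times its counts; INTS8 itself fell 1.48-fold in both lines (adjusted p = 0.00485 and 7.39e-06), and its part in the CCNE2 counts was not tested.

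Within the E-type pair, CCNE2 made up 4.98 ± 0.381% (SD, n = 3) of the sum per kb of exon in HepG2 Ctrl-siRNA libraries and 3.29 ± 0.331% in UBL5 siRNA libraries, and so fell by 1.69 percentage points (exact permutation test, two-sided, p = 0.1); the change was -2.87 with coding length and -2.84 with no division by length. In Huh7 the share was 9.88 ± 1.94% and 10.4 ± 1.19%, a difference of 0.53 percentage points within the spread of the libraries (exact permutation test, p = 0.8), and its sign turned without Ctrl-siRNA replicate 2 (-0.29) or UBL5 siRNA replicate 2 (-0.08). The summed level of both E-type cyclins was 22.3 ± 5.99 and 14.0 ± 1.89 CPM per kb in HepG2, and 12.7 ± 0.447 and 5.59 ± 0.769 in Huh7.

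CDK2 (chromosome 12, 55966781 to 55972789, plus strand, 7 exons) encodes the kinase that the E-type cyclins activate. HepG2 libraries held 48.7, 42.1 and 33.1 CPM with Ctrl-siRNA and 32.4, 23.8 and 24.1 CPM with UBL5 siRNA. Its Huh7 level was 65.1, 59.4 and 56.7 CPM with Ctrl-siRNA and 51.9, 47.5 and 43.3 CPM with UBL5 siRNA. The groups did not overlap in either line, but in HepG2 the nearest libraries, at 33.1 and 32.4 CPM, were almost level. CDK2 fell 1.54-fold in HepG2 (log2 fold change -0.62 ± 0.176 SE; adjusted p = 0.0225, edgeR) and 1.27-fold in Huh7 (-0.35 ± 0.0760; adjusted p = 0.00151). As for CCNE1, the HepG2 call was lost without the Ctrl-siRNA library numbered 1 (adjusted p = 0.0821) or 2 (0.0691) and without the UBL5 siRNA library numbered 2 (0.103) or 3 (0.0849). Genes on the opposite strand share 16.83% of the exon bases of CDK2, and their part in its counts was not tested.

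RB1 (chromosome 13, 48303744 to 48599436, plus strand, 27 exons) encodes the pocket protein that holds E2F1 in check until the kinases act on it. Its HepG2 level was 91.3, 88.4 and 98.3 CPM with Ctrl-siRNA and 71.6, 69.9 and 76.8 CPM with UBL5 siRNA. In Huh7 it read 122, 116 and 119 CPM with Ctrl-siRNA and 101, 97.0 and 101 CPM with UBL5 siRNA. The groups were separate in both lines and the change was the smallest of the 7 falls in each. RB1 fell 1.27-fold in HepG2 (log2 fold change -0.35 ± 0.0882 SE; adjusted p = 0.0144, edgeR) and 1.19-fold in Huh7 (-0.26 ± 0.0457; adjusted p = 0.000347). The HepG2 call was lost without UBL5 siRNA replicate 2 (adjusted p = 0.104), and the lines differed by 0.07 (95% interval -0.14 to 0.27).

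E2F1 (chromosome 20, 33675477 to 33686385, minus strand, 7 exons) is the transcription factor at the end of the chain and a target of E2F itself. In HepG2 it read 104, 94.7 and 86.6 CPM with Ctrl-siRNA and 30.4, 23.3 and 18.5 CPM with UBL5 siRNA. Huh7 libraries held 99.1, 93.0 and 95.6 CPM with Ctrl-siRNA and 70.1, 68.9 and 65.1 CPM with UBL5 siRNA. The lines began level and ended apart, with no overlap between siRNAs in either. E2F1 fell 3.94-fold in HepG2 (log2 fold change -1.98 ± 0.173 SE; adjusted p = 0.000145, edgeR), the largest fall of the 10 there, and 1.41-fold in Huh7 (-0.50 ± 0.0511; adjusted p = 4.18e-06). The difference of 1.45 on the log2 scale (95% interval 1.07 to 1.84; adjusted p = 0.000155) was the largest between the lines among the 9 genes. E2F1 and RB1, like CCNE1, share no exon bases with another gene.

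The promoter of E2F1 is shown because it was the gene that differed most between the lines and because E2F sites are the known link by which the family regulates itself. A search of 300-base windows (250 bases before to 50 after a RefSeq start site, GRCh38.p14) for the 4 words TTTCCCGC, TTTCGCGC, TTTGCCGC and TTTGGCGC on both strands found a match in 1 of the 9 windows that exist for 6 of the genes (CCND3, CCNE1, CDK4, CDK6, RB1 and E2F1). The RB1 window lies at an internal start site. Of all 35116 windows of this length, 3.31% held at least 1 match and 0.145% held at least 2, counting matches that overlap. The E2F1 window held 2, which do not overlap: TTTGCCGC on the reverse strand from 33 bases before the start site, and TTTGGCGC on the gene's own strand from 20 bases before it. The 30 bases around them, chr20:33686393-33686422 read on the minus strand, carry both matches in capitals.
E2F1: tttcGCGGCAAAaaggaTTTGGCGCgtaaa
A match describes these letters and no more, and windows without one say only that the 4 words are not there.

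**Figure D3:**
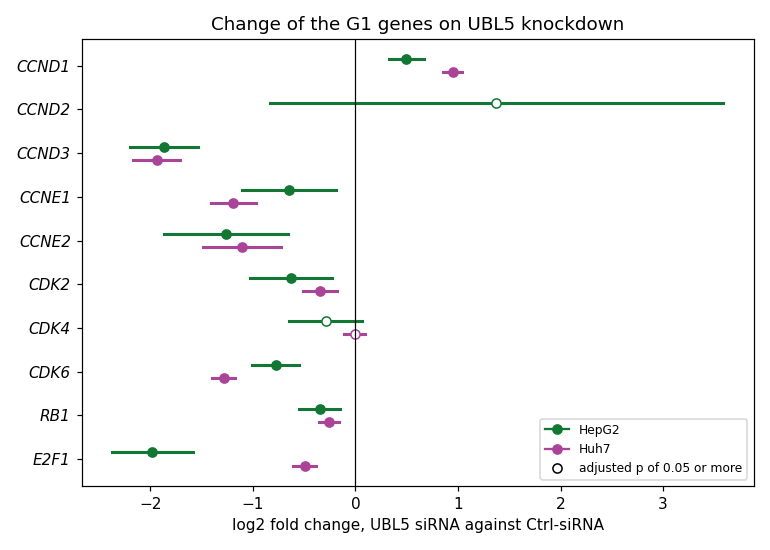
Log2 fold change of each gene, UBL5 siRNA against Ctrl-siRNA, with its 95% interval, in HepG2 and Huh7; filled points had an adjusted p under 0.05 (edgeR's quasi-likelihood test). The intervals of E2F1, CDK6 and CCND1 did not overlap between the lines, those of CCND3 and RB1 did, and the CCND2 interval ran from -0.83 to 3.58.

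Setting the 2 effects against each other in 1 model, 3 of the 9 genes differed between the lines after adjustment, where 21.5% of all 15668 genes tested did (11.7% more positive and 9.88% more negative in Huh7). CCND1 and E2F1 were more positive in Huh7 and CDK6 was more negative. The other 6, CCND3, CCNE1, CCNE2, CDK2, CDK4 and RB1, did not pass, although CCNE1 did with the replicate block as given above, and the interval for CCNE2 (-0.54 to 0.80) is wide enough to hold sizeable differences in either direction. UBL5 itself differed by 0.16 (95% interval -0.43 to 0.74; adjusted p = 0.735), so the knockdown was not shown to differ between the lines.

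The groups of libraries separated for 8 of the 10 genes in HepG2, with 2 above and 6 below the controls, where 53.0% of all genes tested separated. In Huh7 they separated for 8 of 9, with 1 above and 7 below, against 73.9% of all genes. CCNE1 and CDK4 were the HepG2 genes that overlapped, and CDK4 was the Huh7 one.

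The lines also differed before any knockdown. On a common scale, Ctrl-siRNA libraries of HepG2 held 340 ± 14.6 CPM of CCND1 and 331 ± 24.0 CPM of CDK6 (SD, n = 3), against 116 ± 1.92 and 115 ± 5.77 CPM in Huh7. These were 2.92-fold and 2.89-fold lower in Huh7 (adjusted p = 3.86e-11 and 1.49e-09, edgeR). CCNE1 was 1.98-fold lower in Huh7 (adjusted p = 0.000187) and CCND3 1.30-fold lower (adjusted p = 0.0116), while CDK2 was 1.37-fold higher (adjusted p = 0.0112) and RB1 1.20-fold higher (adjusted p = 0.00304). In all 6 of 9 genes differed, with 2 higher and 4 lower in Huh7, where 63.7% of all genes did (32.0% higher and 31.7% lower). E2F1 (log2 difference -0.08, 95% interval -0.35 to 0.19), CDK4 (0.05, -0.21 to 0.31) and CCNE2 (0.09, -0.36 to 0.54) did not pass. The CDK2 call was lost without Huh7 Ctrl-siRNA replicate 1 (adjusted p = 0.0561), and the CCND3 call with scaling to total counts (0.0728), which moved the median of all genes from 0.02 to 0.14. The control libraries enter this comparison and the knockdown comparisons alike, so the 2 are not independent.

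Ranked per kb of exon within a group, CCND1 led the HepG2 Ctrl-siRNA libraries at 68.3 ± 2.66 CPM per kb (SD), followed by CDK4 at 43.7 ± 6.81 and E2F1 at 35.3 ± 3.22, whose ranges overlapped. CDK6 at 25.9 ± 1.92, CCNE1 at 21.2 ± 5.76 and RB1 at 14.4 ± 0.787 followed, where CCNE1 overlapped both CDK6 and RB1, and then CDK2 at 10.6 ± 2.02, apart from RB1. CCND3 at 3.74 ± 0.191, CCNE2 at 1.10 ± 0.239 and CCND2 at 0.042 ± 0.037 closed the order without overlap. The order depends on the length used. CDK6 has 12239 exon bases and 978 coding bases, against 3094 and 909 for CDK4. In undivided CPM, CDK6 (317 ± 23.5) stood above CDK4 (135 ± 21.1) in these libraries.

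In Huh7 Ctrl-siRNA libraries the order was CDK4 at 48.4 ± 1.01 CPM per kb, E2F1 at 35.6 ± 1.13, CCND1 at 25.0 ± 0.523, RB1 at 18.5 ± 0.490, CDK2 at 15.5 ± 1.10, CCNE1 at 11.4 ± 0.534, CDK6 at 9.56 ± 0.422, CCND3 at 3.08 ± 0.230 and CCNE2 at 1.25 ± 0.230, and no neighbours overlapped. That order too rests on exon length, since in undivided CPM CDK6 (117 ± 5.16) stood above E2F1 (95.9 ± 3.04) there. With UBL5 siRNA, CCND1 at 48.3 ± 0.637 and CDK4 at 48.1 ± 2.05 CPM per kb became level in Huh7. In HepG2, E2F1 went from the third place to the sixth, at 8.95 ± 2.23 CPM per kb, where it overlapped both RB1 above it and CDK2 below it.

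Around these genes, 7 lists of the pathway were examined: CDK inhibitors, CDK activators and binding proteins, the other pocket proteins with the E2F, DP and MuvB factors, E2F target genes of the G1/S transition, G2 and mitosis genes, mitogenic inputs to the cyclin D genes, and the ubiquitin ligases and partners that turn over G1 cyclins. These lists were also chosen with earlier results of these data known. Of all genes tested, 20.1% fell and 16.5% rose in HepG2, and 36.4% fell and 34.9% rose in Huh7. The counts below are to be read beside these shares.

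The E2F target genes of the G1/S transition, which build replication origins, helicases and nucleotides, fell in most cases. In HepG2, 26 of 32 fell, 1 rose and 5 did not pass, with a median log2 fold change of -0.96. In Huh7, 18 fell, 8 rose and 6 did not pass, with a median of -0.31. Tested directly, 17 of the 32 were more positive in Huh7 and 0 more negative. RRM2, a subunit of ribonucleotide reductase, fell in both lines (-1.37 and -1.16; adjusted p = 0.000155 and 9.59e-08, edgeR), as did CDC45, a helicase factor (-2.11 and -1.66; 0.000243 and 2.64e-08) and the methyltransferase gene EZH2 (-1.07 and -0.97; 0.000769 and 3.69e-08). RRM1, the large subunit, had log2 fold changes of -1.30 and -0.74, and that difference passed (adjusted p = 0.0143).

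Of the G2 and mitosis genes, 10 of 17 fell and 0 rose in HepG2 (median -0.43), and 7 of 18 fell and 3 rose in Huh7 (median -0.03). AURKA, a mitotic kinase, fell in both lines (-0.84 and -0.62; adjusted p = 0.000244 and 5.86e-07, edgeR). MKI67, which encodes the proliferation marker Ki-67, fell in both (-0.97 and -0.24; adjusted p = 0.000785 and 0.00260), with a difference that passed (0.00502). PLK1 and TTK, both mitotic kinases, rose in Huh7 (0.77 and 0.80; adjusted p = 3.11e-08 for each). In HepG2 they read 0.25 and 0.47 (0.334 and 0.0503) and passed with the replicate block (0.0193 and 0.0142).

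The other pocket proteins, E2F and DP factors and MuvB subunits went both ways, in Huh7 at about the shares of all genes. In HepG2, 7 of 17 fell and 3 rose (median -0.30), and in Huh7, 6 fell and 7 rose (median 0.12). RBL1 and RBL2, the RB1 relatives p107 and p130, fell in HepG2 and in Huh7 (-1.45 and -0.72 for RBL1, -0.76 and -1.06 for RBL2; adjusted p = 0.000409 and 2.86e-05, and 0.000644 and 2.44e-08, edgeR). TFDP1, the DNA-binding partner of E2F1, fell in both (-1.09 and -0.43; adjusted p = 0.000235 and 0.000147). E2F7, a repressive member of the family, fell as well (-0.97 and -1.82; 0.000578 and 1.57e-08).

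The CDK inhibitors, which block the kinases described above, gave 1 higher and 3 lower of 6 in HepG2 (median -0.02) and 0 higher and 5 lower of 7 in Huh7 (median -0.77). CDKN1A, encoding p21, went in opposite directions, with a log2 fold change of 1.01 in HepG2 and -2.13 in Huh7 (adjusted p = 0.00185 and 5.37e-07, edgeR; 1.53e-05 for the difference). CDKN2C, encoding the CDK4 and CDK6 inhibitor p18, fell in both (-1.18 and -2.21; adjusted p = 0.00141 and 1.34e-08). Of 7 CDK activators and binding proteins, 2 fell and 0 rose in HepG2 (median -0.01), and 2 fell and 1 rose in Huh7 (median 0.04). CDC25A, the phosphatase that activates CDK2, fell in HepG2 (-0.78; adjusted p = 0.000836) and read -0.09 in Huh7 (0.289). MNAT1, a subunit of the CDK-activating kinase, fell in Huh7 (-0.40; 0.000123) and read -0.30 in HepG2 (0.159, and 0.0410 with the replicate block). CKS2 fell in both (-0.47 and -0.14; 0.00287 and 0.0413), and CCNH, another subunit of that kinase, rose in Huh7 by 0.20 (0.0266) and read -0.01 in HepG2 (0.964). The Huh7 calls of CKS2 and CCNH were lost in several of the alternatives tried, including without Ctrl-siRNA replicate 3 (0.0738 and 0.0651).

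Of the mitogenic inputs that act on the cyclin D genes, 11 of 24 rose and 1 fell in HepG2 (median 0.40), and 13 rose and 6 fell in Huh7 (median 0.29). ETS2, a transcription factor downstream of RAS, rose by 1.19 and 1.55 on the log2 scale (adjusted p = 0.000518 and 4.43e-08, edgeR). STAT3 rose by 0.90 and 0.52 (0.000184 and 7.22e-07) and MAPK3, encoding the kinase ERK1, by 0.79 and 1.37 (0.00119 and 1.79e-09). Among the ubiquitin ligases and partners, 5 of 17 rose and 2 fell in HepG2 (median 0.06), and 13 rose and 2 fell in Huh7 (median 0.31). AMBRA1, which directs the ubiquitin ligase that removes D-type cyclins, rose by 0.84 and 1.09 (0.000258 and 1.21e-08). USP2, a deubiquitinase that acts on cyclin D1, rose by 0.93 and 1.73 (0.000828 and 1.45e-07). FBXO31, another ligase subunit for cyclin D1, rose in Huh7 by 1.05 (3.46e-08) and read 0.08 in HepG2 (0.528).

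**Figure D4:**
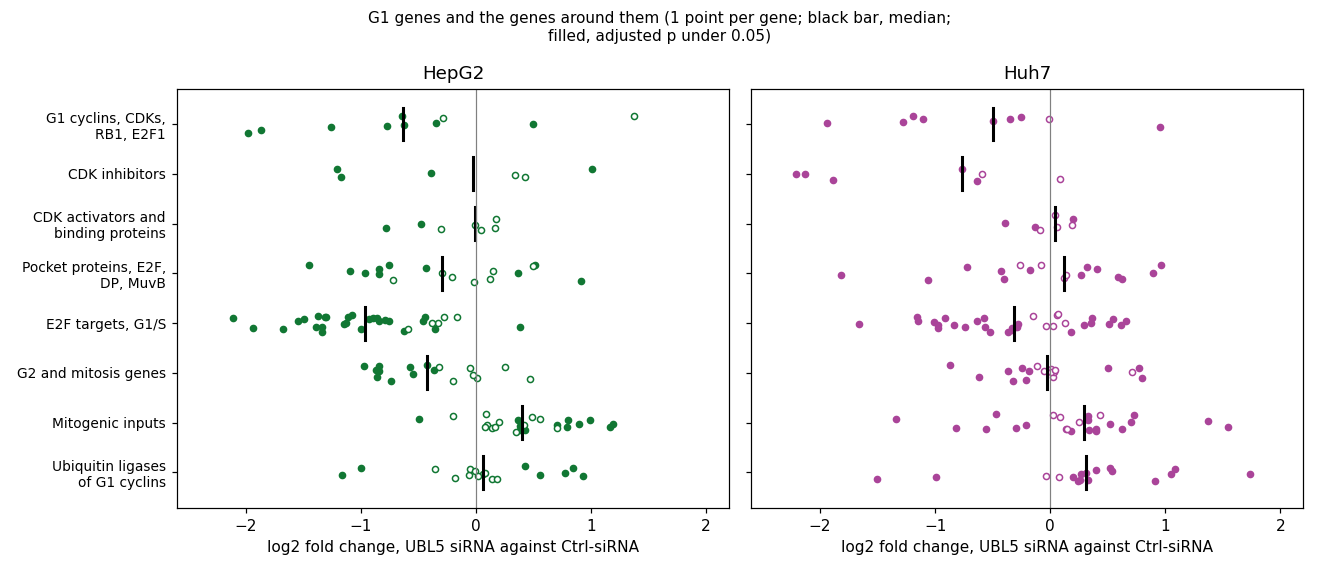
Log2 fold change of each gene of the 10 and of the 7 lists around them, UBL5 siRNA against Ctrl-siRNA, in HepG2 and Huh7; 1 point per gene, filled where the adjusted p was under 0.05, with the list's median as a black bar and a random vertical offset. The E2F targets of the G1/S transition had medians of -0.96 in HepG2 and -0.31 in Huh7, and mitogenic inputs had medians of 0.40 and 0.29.

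To see which other genes varied most like each of the 9, log2 CPM values were centred on each line's mean and correlated over the 12 libraries, among protein-coding genes with at least 10 CPM on average in each line; these are descriptions, since all libraries share lines and siRNAs. For CCND1 the closest were ZYX (Pearson r = 0.996) and NFYA (0.996), and for CCND3 they were SEPTIN10 (0.996) and ZNF587B (0.995). For CDK6 they were ANAPC16 (0.995) and LANCL1 (0.995), for RB1 EIF2B1 (0.994) and SPATS2 (0.983), and for E2F1 FANCI (0.991) and CAMKK2 (0.990). For CCNE1 they were PPP1CA (0.991) and GNL1 (0.990), for CCNE2 ANKIB1 (0.976) and DYNC2LI1 (0.975), for CDK2 DDC (0.994) and POLA1 (0.990), and for CDK4 THAP11 (0.962) and EVL (0.960).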

How the data were processed

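Libraries were made with a stranded poly-A kit and sequenced as single reads. Per the submitters' processing notes, the authors used bcl2fastq, FastQC 0.11.9, STAR 2.7.6a, GRCh38 and featureCounts (annotation and strand setting are not given in the sources used here) and DESeq2 1.30.0. The deposited values used are raw counts per gene, 1 column per library; the authors' own fold change and p-value columns were not used. GENCODE 44 gave lengths and positions.

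Counts were fitted with edgeR 4.0.16 in R 4.3.3 (TMM scaling, filterByExpr with a minimum count of 10, quasi-likelihood test, Benjamini-Hochberg adjustment over all genes tested, threshold 0.05), in each line and, for differences between lines, over all 12 libraries. Total counts of 19469574 to 29744471 leave counting error small except for CCND2, CCNE2 and, with UBL5 siRNA, CCND3. There CCND3 had 111 to 161 counts in HepG2 and 92 to 100 in Huh7. CPM uses TMM-scaled library sizes. Shares of a family used exact permutation tests that did not pair libraries. With 3 pairs a sign-flip test can give no p under 0.25. Same-numbered HepG2 libraries had residual correlations of 0.264, 0.169 and 0.172, and differently numbered ones -0.223 to -0.0496. The main fits did not pair libraries, and pairing by number entered only as the replicate block. The scripts were tested on simulated data. DESeq2 1.42.0, other scalings, no filter, a replicate block and leaving out each library were tried. From each list, the 2 genes with the smallest adjusted p in each line are named, and for each member the 2 most alike. FBXW7 and FBXO4 are named besides, as the ubiquitin ligase genes that fell. The members and lists were chosen with earlier results of these data known. Both HepG2 libraries numbered 3 lack a run suffix in their column names; leaving out both was added after seeing the data.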

Additional observations from a re-analysis of the deposited data

Results flagged for a closer look

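The responses of the 2 lines to UBL5 siRNA differed for 17 of the G1 genes and the genes named from the 7 lists. The test was the interaction test of edgeR with adjustment over all genes, and values are Huh7 minus HepG2 log2 fold changes. Of all 15668 genes tested, 21.5% differed. Apart from FBXW7 and FBXO4, the genes from the lists were named for having the smallest adjusted p in each line. They do not stand for their lists, so the 17 cannot be weighed against that share. The G1 genes that differed were E2F1 (1.45), CCND1 (0.42) and CDK6 (-0.53), with adjusted p of 0.000155, 0.00212 and 0.00537. Among CDK inhibitors, CDKN1A differed by -3.17 and CDKN2C by -1.06. Among CDK activators, CDC25A differed by 0.66 and CKS2 by 0.31. Among pocket proteins and E2F factors, the values were -0.88 for E2F7, 0.70 for RBL1, -0.33 for RBL2 and 0.63 for TFDP1. RRM1, an E2F target, differed by 0.53, and MKI67 by 0.70. MAPK3 differed by 0.54 and STAT3 by -0.40, and among ubiquitin ligases and partners FBXO31 differed by 0.94 and USP2 by 0.78. The calls of CKS2, RBL1 and RBL2 were lost when some single libraries were left out, with adjusted p up to 0.0918, 0.0774 and 0.0915.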

How the results depend on the processing

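Of the summary results under each alternative, 337 kept their direction and stayed close to the value or count with all libraries, as did 1780 single-gene and list results. Of the summary results 13 moved further and 2 turned sign; of the others 42 lost a call, 19 gained one, 24 turned sign and 25 list counts moved. Leaving out 1 library at a time gave 3819 to 7270 genes called in HepG2 (5780 with all), 1985 to 3892 of them lower (3173), and 4 to 8 of the 10 G1 genes lower (7); the lowest counts came without UBL5 siRNA replicate 2 and the highest without Ctrl-siRNA replicate 3. Leaving out Huh7 Ctrl-siRNA replicate 1 left 1 gene higher in Huh7 control cells in place of 2. The calls of the 8 G1 genes in Huh7 held under every alternative, as did those of CCND1, CDK6 and E2F1 for the difference between lines. With the replicate block, 2 of the 9 genes were more negative in Huh7 in place of 1 (CCNE1, -0.60, adjusted p = 0.0328, edgeR), and CDK4 fell in HepG2 (0.0206); pairing changed no other call of a G1 gene. In Huh7 the same-numbered libraries had residual correlations of 0.266, 0.014 and 0.365, beside 0.264, 0.169 and 0.172 in HepG2. Differently numbered libraries had correlations of -0.313 to 0.0772 in Huh7 and -0.223 to -0.0496 in HepG2. In both lines the titles link these libraries by number only. The run suffixes in the column names, where given, alternate between Ctrl-siRNA and UBL5 siRNA in the order of these numbers. No source used here says whether the libraries were paired.

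Shares of a family depend on the length used. With coding length or no division, CCND3 changed by -4.99 and -4.94 percentage points in HepG2 and -11.1 and -11.0 in Huh7, CCNE2 by -2.87 and -2.84 in HepG2, and CDK6 by -18.9 and -19.4 in Huh7; the CCNE2 difference in Huh7 ran from -0.29 to 1.60 without single libraries. Sign changes were otherwise confined, among the genes named, to values that did not pass. CCNH in HepG2 was 0.018 with DESeq2 and with its size factors, 0.015 without the filter and -0.099 to 0.091 without single libraries. CDK4 in Huh7 was 0.0036, 0.0036 and 0.0041 under the same settings and -0.027 to 0.033 without single libraries, and CDC25A there ran from -0.13 to 0.0029. Differences between lines ran from -0.25 to 0.030 for MNAT1, -0.058 to 0.18 for EZH2, -0.17 to 0.0030 for CCND3, -0.00092 to 0.29 for CCNE2 and -0.083 to 0.54 for UBL5, which was -0.095 without both HepG2 libraries numbered 3. Between control cells, E2F1 was 0.038 with total counts, CDK4 ran from -0.062 to 0.12 and CCNE2 from -0.076 to 0.20, and without both HepG2 libraries numbered 3 they were -0.062 and -0.077. The cause of these shifts was not tested. Depth limits CCND2, with 23 counts at most, CCNE2 and, with UBL5 siRNA, CCND3.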
